A study of Mus musculus with 9 samples.

Results

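The 9 protein tyrosine phosphatase genes described here are Ptprc, Ptpn6, Ptpn11, Ptpn7, Ptpn1, Ptpn2, Ptpn12, Ptpn18 and Ptpn22. They were taken by symbol, as the classical phosphatases best known in blood cells, from 43629 gene rows. Earlier results of these data were known when they were chosen. Of the 9 members, 8 were among the 11002 genes with enough reads to test, and Ptpn22 was not. The cells were Eµ-Myc lymphoma cells of clone 4242, a mouse B-cell lymphoma line grown in culture. Its Myc transgene, placed under the immunoglobulin heavy chain enhancer, was present in all groups, so every library came from 1 Myc-driven clone. Cells were exposed for 2 h to DMSO, the solvent control, to JQ1 at 1 µM or to RG6146 at 2.5 µM, with 3 cultures per group. Both compounds block the bromodomains with which BET proteins read acetylated chromatin, and the comparisons ask which transcripts differ after each compound.

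Protein tyrosine phosphatases remove phosphate from tyrosine residues and set the threshold of antigen receptor, cytokine receptor and growth factor signals in blood cells. CD45, the product of Ptprc, is the most abundant of them on the surface of lymphocytes and removes the inhibitory phosphate from SRC family kinases. SHP-1 is recruited to inhibitory receptors through their phosphorylated ITIM motifs, whereas SHP-2 mostly passes growth factor signals on to RAS.

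Each library counted 3′ ends of polyadenylated transcripts, so a read stands for a transcript end and levels are given in CPM, the read count relative to the TMM-scaled library size, without division by gene length. Gene counts ran from 3410161 to 5031717 per library. A gene was called when its adjusted p in edgeR's quasi-likelihood test was below 0.05, with Benjamini-Hochberg adjustment over all tested genes. By this rule 28.9% of tested genes were called after JQ1 and 26.0% after RG6146, and both comparisons used the same 3 DMSO libraries. The cultures are replicates of 1 clone, so p-values measure the spread between cultures. In such bulk RNA, fewer cells of a type and less RNA per cell cannot be told apart. B-cell markers were present, with 10 of 10 listed genes tested, from 79 counts over all libraries for Pax5 to 8060 for Ebf1. Of 10 T and NK cell markers, 1 was tested, Cd2 with 199 counts, and 1, the T-cell receptor gene Trac, had 0 counts. Summed myeloid markers were uneven, at 151, 742 and 334 CPM in the DMSO libraries, between 59.4 and 287 CPM after JQ1 and between 88.7 and 127 CPM after RG6146. Of 12 such markers 8 were tested, and the only 1 called went against the sum. It was Csf1r, named after its values were seen, which rose by 0.59 on the log2 scale after JQ1 and by 0.48 after RG6146.

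Of the 8 tested members, 3 fell (Ptprc, Ptpn6 and Ptpn7) and 2 rose (Ptpn1 and Ptpn11) after JQ1, which is 62.5% called. The members were chosen with earlier results of these data known, so this share is no test against all genes. After RG6146 the same 5 genes were called in the same directions, again 3 lower and 2 higher. These 5 genes also had no overlap between the DMSO and treated libraries. Over all tested genes, 20.6% were higher and 22.0% lower without overlap after JQ1 (42.6% in either direction), and 20.1% and 20.9% after RG6146 (40.9% in either direction). By adjusted p, 13.6% of tested genes were higher and 15.4% lower after JQ1, and 12.5% and 13.5% after RG6146. The median log2 fold change of the 8 was −0.13 after JQ1 and −0.18 after RG6146, beside medians of 0.0047 and 0.0086 over all tested genes. Summed over the 9 genes, the phosphatase transcripts came to 535 ± 5.29 CPM in DMSO, 492 ± 3.64 CPM after JQ1 and 484 ± 17.8 CPM after RG6146 (SD, n = 3). Ptprc, Ptpn6 and Ptpn7 together were 38.0% ± 2.52 of that sum in DMSO, 21.8% ± 1.45 after JQ1 and 21.04% ± 0.825 after RG6146 (SD, n = 3). These 3 were grouped because they fell, so their lower share restates the calls and is no separate result.

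The start-site sequences of the 5 called genes are shown because these genes changed in opposite directions within 2 h. Each is the RefSeq window of 300 bases that ends shortly after the transcription start (GRCm38.p6), read 5′ to 3′ on the gene's own strand, and capitals mark GGAAG, the core of ETS family sites, or its reverse complement CTTCC. The first 3 belong to genes that fell.
Ptprc, chr1:138175256-138175555, minus strand: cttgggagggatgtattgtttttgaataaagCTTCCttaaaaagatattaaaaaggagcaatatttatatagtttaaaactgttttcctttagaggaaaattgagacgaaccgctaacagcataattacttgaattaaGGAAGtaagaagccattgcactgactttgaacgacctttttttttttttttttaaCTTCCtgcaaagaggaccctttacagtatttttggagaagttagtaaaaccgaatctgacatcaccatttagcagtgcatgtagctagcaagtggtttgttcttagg
Ptpn6, chr6:124738660-124738959, minus strand: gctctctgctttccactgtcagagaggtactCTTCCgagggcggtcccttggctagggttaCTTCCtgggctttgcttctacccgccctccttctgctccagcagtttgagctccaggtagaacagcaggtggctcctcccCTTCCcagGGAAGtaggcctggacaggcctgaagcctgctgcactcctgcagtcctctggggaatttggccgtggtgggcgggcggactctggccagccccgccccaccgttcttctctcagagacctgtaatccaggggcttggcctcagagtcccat
Ptpn7, chr1:135132450-135132749, plus strand: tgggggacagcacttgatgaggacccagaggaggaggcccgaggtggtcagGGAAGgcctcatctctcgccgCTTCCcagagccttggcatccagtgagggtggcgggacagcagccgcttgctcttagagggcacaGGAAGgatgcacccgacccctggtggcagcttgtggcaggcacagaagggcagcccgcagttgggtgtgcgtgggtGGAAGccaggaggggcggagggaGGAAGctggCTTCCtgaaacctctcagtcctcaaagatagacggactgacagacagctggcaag
The other 2 belong to genes that rose.
Ptpn1, chr2:167932077-167932376, plus strand: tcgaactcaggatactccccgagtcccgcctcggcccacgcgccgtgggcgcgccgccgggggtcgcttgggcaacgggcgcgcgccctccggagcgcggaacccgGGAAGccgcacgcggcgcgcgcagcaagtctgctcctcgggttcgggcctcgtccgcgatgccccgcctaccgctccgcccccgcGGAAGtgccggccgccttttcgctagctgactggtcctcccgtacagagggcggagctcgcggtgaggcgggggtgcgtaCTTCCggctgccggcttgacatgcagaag
Ptpn11, chr5:121191348-121191647, minus strand: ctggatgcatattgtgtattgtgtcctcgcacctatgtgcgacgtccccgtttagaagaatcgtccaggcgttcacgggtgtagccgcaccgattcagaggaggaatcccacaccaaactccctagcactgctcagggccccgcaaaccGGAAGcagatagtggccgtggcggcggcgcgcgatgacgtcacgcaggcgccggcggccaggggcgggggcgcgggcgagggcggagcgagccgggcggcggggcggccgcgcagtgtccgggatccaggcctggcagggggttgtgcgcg
The windows differed in base composition. That of Ptprc held 33.7% G+C and 4 CpG dinucleotides, below the lower quartile of 45.7% G+C over all 32817 RefSeq windows. The windows of Ptpn1 and Ptpn11 held 74% and 68.7% G+C with 47 and 37 CpG, above the upper quartile of 61.7%. That of Ptpn7, a gene that fell, also lay above this quartile, at 63.3% G+C with 10 CpG. That of Ptpn6 held 61.7% G+C, equal to the quartile as rounded, with 8 CpG. GGAAG on either strand occurred 3 times in Ptprc, 4 times in Ptpn6, 6 times in Ptpn7, 3 times in Ptpn1 and 1 time in Ptpn11, and 71.4% of all windows hold it. CACGTG, the E-box bound by MYC among others and the same on both strands, was in 7.15% of all windows and in none of the 5 printed. The windows of Ptpn6, Ptpn1 and Ptpn11 held 5, 2 and 4 copies of GGGCGG, the GC box, that of Ptpn7 held 1 and that of Ptprc held 0, against 35.6% of all windows with at least 1. Matches are letters in a window and were not tested as binding sites. A second RefSeq start was listed for Ptprc and for Ptpn7, and each of these windows held GGAAG only 1 time. The counts above are thus those of the printed start.

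**Figure D1:**
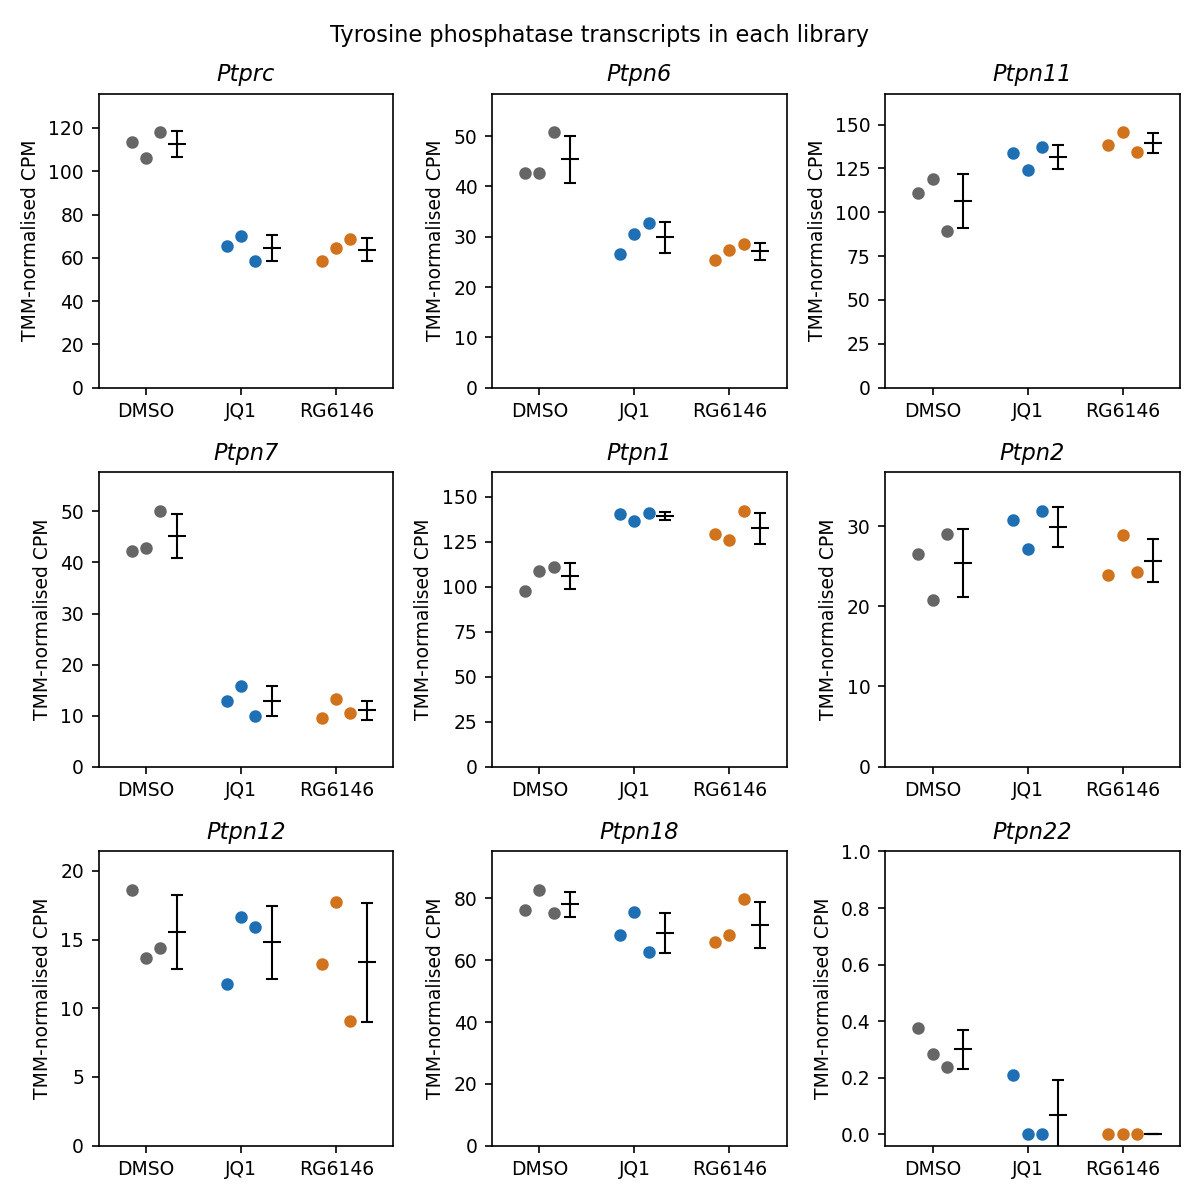
TMM-normalised CPM (vertical axes, linear) of the 9 phosphatase transcripts in each of the 9 libraries; dots are libraries and black bars the mean ± SD of 3. Ptprc, Ptpn6 and Ptpn7 are lower in every treated library than in any DMSO library, Ptpn1 and Ptpn11 are higher, and Ptpn22 lies at or near 0.

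Ptprc, on chromosome 1 (GRCm38 138062861 to 138175708), had the highest mean of the 9 in DMSO, at 113, 106 and 118 CPM, a range that overlapped those of Ptpn11 and Ptpn1. It stood at 65.2, 70.0 and 58.3 CPM after JQ1 and at 58.4, 64.5 and 68.6 CPM after RG6146. All 6 treated libraries lay below all 3 DMSO libraries. The log2 fold change was −0.80 ± 0.095 (SE) after JQ1 and −0.82 ± 0.095 after RG6146, with adjusted p of 6.3e-06 and 5.8e-06 in edgeR's test. These are levels of 57.3% and 56.7% of DMSO. Myeloid cells also carry CD45 and SHP-1, and the DMSO 2 library had the highest myeloid sum. Without that library, Ptprc changed by −0.84 and Ptpn6 by −0.64 on the log2 scale after JQ1, and without DMSO 3, which had the next highest sum, by −0.77 and −0.52. The part of myeloid RNA in these values was not tested.

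Among partners of CD45, Ptprcap, which encodes the CD45-associated protein, fell by 0.59 on the log2 scale after JQ1 and by 0.49 after RG6146 (adjusted p = 0.00206 and 0.00804 in edgeR's test). The list of SRC and SYK family kinases with the partners of CD45 and PEP had 11 of 17 genes tested, of which 5 fell and 1 rose after each compound. Its median log2 fold change was −0.26 after JQ1 and −0.09 after RG6146. Over all tested genes, 15.4% were lower and 13.6% higher after JQ1, and 13.5% and 12.5% after RG6146. These shares stand beside the counts of every pathway list here. The lists were chosen with earlier results of these data known, so list counts are no test against all genes. Syk, the kinase that binds the phosphorylated B-cell receptor, changed by −0.76 and −0.67 (adjusted p = 2.0e-05 and 8.7e-05). Btk, which acts below Syk, changed by −0.72 and −0.51. Pag1, the membrane anchor of the inhibitory kinase CSK, was the gene of this list that rose, by 0.64 and 0.62 (adjusted p = 0.00232 and 0.00307). Lyn, the main SRC family kinase of B cells and named after its values were seen, had 72.6 ± 2.65 CPM in DMSO, 69.9 ± 5.11 after JQ1 and 69.5 ± 4.67 after RG6146 (SD, n = 3), and was not called. With scaling to the ERCC spike-in RNAs, 3 genes of this list were lower after JQ1 and 1 after RG6146, and 0 were higher; with ERCC scaling plus the block 4 were lower and 1 higher after each. The lower count was 3 after JQ1 in DESeq2 and without DMSO 1, DMSO 2, JQ1 2 or JQ1 3, and after RG6146 it was 2 without DMSO 1 and 3 without RG6146 1 or RG6146 3.

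Ptpn6 encodes SHP-1, the phosphatase with paired SH2 domains that carries inhibitory signals in lymphocytes (chromosome 6, 124720707 to 124738714). Its level was 42.7, 42.6 and 50.8 CPM in DMSO, 26.5, 30.5 and 32.7 CPM after JQ1 and 25.3, 27.3 and 28.6 CPM after RG6146. The DMSO values did not overlap those of either treated group. The log2 fold change was −0.60 ± 0.118 (SE) after JQ1 and −0.74 ± 0.119 after RG6146 (adjusted p = 8.2e-04 and 1.5e-04 in edgeR's test). With ERCC scaling the JQ1 call was lost at a change of −0.61 (adjusted p = 0.0937), and with ERCC scaling plus a replicate block Ptpn6 was called at −0.62 (adjusted p = 6.0e-04). Gm20531, annotated on the opposite strand across 3 exons of Ptpn6, had 3 counts in all 9 libraries together.

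Tested genes of a list of ITIM receptors were lower as well. Of 15 genes of that list found, 7 were tested, and 7 of the 7 fell after each compound, with medians of −1.71 and −1.68 on the log2 scale. Among the 7, Btla, named after its values were seen, had few reads. It ran from 4.83 to 5.75 CPM in DMSO, from 0 to 1.26 CPM after JQ1 and from 0.228 to 1.01 CPM after RG6146. A gene can enter the test through the DMSO libraries alone, so the tested genes do not stand for all 15. Of all tested genes 15.4% were lower after JQ1 and 13.5% after RG6146. This list was chosen with earlier results known, so its count is no test against that share. Cd22, the sialic acid receptor that restrains the B-cell receptor, stood at 52.7, 41.8 and 38.4 CPM in DMSO, between 10.3 and 11.2 CPM after JQ1 and between 10.9 and 17.2 CPM after RG6146. Siglecg, a related receptor, changed by −1.70 and −1.76 (adjusted p = 5.7e-08 and 4.3e-08 in edgeR's test). Cd72, a B-cell receptor of the lectin type that recruits SHP-1, changed by −0.95 and −0.92, and Ceacam1, an adhesion receptor, by −1.71 and −1.39. Cd22 is also 1 of the 10 B-cell markers, whose sum ran from 871 to 975 CPM in DMSO, from 570 to 588 CPM after JQ1 and from 566 to 627 CPM after RG6146. Of these 10 B-cell markers, 5 were called lower after JQ1 and 6 after RG6146, and 0 were called higher. The part of the shift in their sum in the phosphatase values was not tested.

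**Figure D2:**
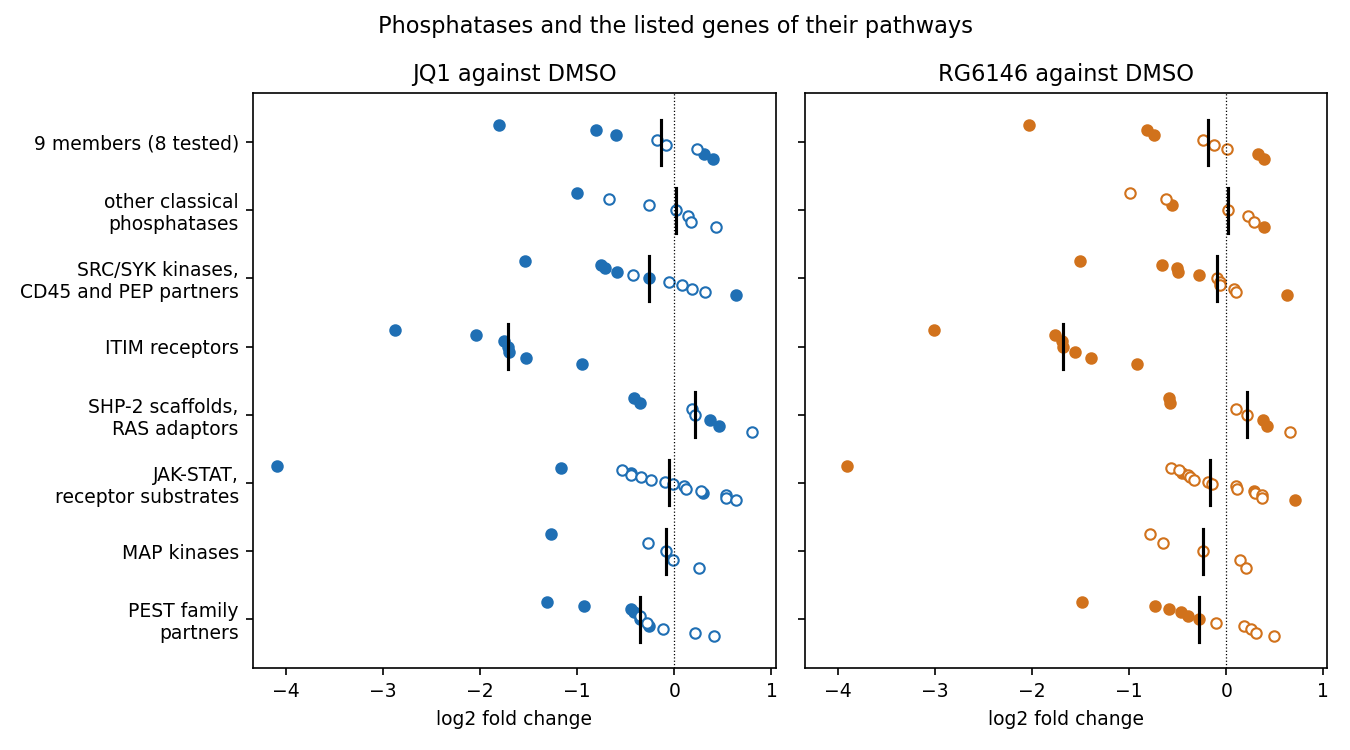
log2 fold change against DMSO (horizontal axis) of each tested gene in the 9 phosphatases and 7 pathway lists, for JQ1 (left) and RG6146 (right); filled dots have an adjusted p below 0.05, open dots do not, and black lines are list medians. All 7 tested ITIM receptor genes lie left of 0 in both panels.

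Ptpn11 encodes SHP-2, which resembles SHP-1 in layout but supports RAS signalling (chromosome 5, 121130533 to 121191397). It was measured at 111, 119 and 89.2 CPM in DMSO, at 134, 124 and 137 CPM after JQ1 and at 138, 146 and 134 CPM after RG6146. The treated values lay above the DMSO values, with DMSO 3 the lowest library. The log2 fold change was 0.31 ± 0.097 (SE) after JQ1 (adjusted p = 0.0232) and 0.39 ± 0.097 after RG6146 (adjusted p = 0.00566), in edgeR's test. The JQ1 call was lost without DMSO 3 (0.20, adjusted p = 0.127), without JQ1 1 (0.30, 0.0705), without JQ1 3 (0.28, 0.0854), with scaling to library size alone (0.17, 0.188), with ERCC scaling (0.31, 0.498) and with ERCC scaling plus a replicate block (0.30, 0.082). The RG6146 call was lost with ERCC scaling only (0.43, adjusted p = 0.293), and was present with ERCC scaling plus the block (0.42, adjusted p = 0.0157).

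The scaffolds and RAS adaptors around SHP-2 had 7 of 15 genes tested, with 2 higher and 2 lower after each compound and medians of 0.22 and 0.21. Grb2, the adaptor that brings SOS to receptors, rose by 0.37 and 0.38 (adjusted p = 0.00228 and 0.00183 in edgeR's test), and Sos1, an exchange factor for RAS, rose by 0.46 and 0.42. Its relative Sos2 fell by 0.42 and 0.58. With ERCC scaling none of the 7 was called, and with ERCC scaling plus the block 2 were higher after each compound, with 1 lower after JQ1 and 2 after RG6146. The lower count after JQ1 was 0 without DMSO 1 or JQ1 1 and in DESeq2, and 1 without DMSO 2, JQ1 2, JQ1 3 or RG6146 2, and the higher count after RG6146 was 1 without RG6146 2. Of the 17 alternatives in all, the higher count differed from 2 in 2 after JQ1 and in 4 after RG6146. The lower count differed from 2 in 11 and in 1. Each count ran from 0 to 2.

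Ptpn7 encodes HePTP, a small cytosolic phosphatase of blood cells that binds MAP kinases through its kinase interaction motif (chromosome 1, 135132700 to 135145317). It changed most of the members: 42.3, 42.9 and 50.1 CPM in DMSO, 12.8, 15.7 and 9.93 CPM after JQ1, and 9.58, 13.2 and 10.5 CPM after RG6146. The highest treated library lay well below the lowest DMSO library. The log2 fold change was −1.81 ± 0.163 (SE) after JQ1 and −2.03 ± 0.166 after RG6146 (adjusted p = 2.9e-07 and 1.1e-07 in edgeR's test), a 3.51-fold lower level after JQ1. It was the 173rd lowest fold change of the 11002 tested after JQ1. Of the MAP kinases that HePTP can bind, and their close relatives, 5 of 6 were tested. Mapk11, a p38 kinase, was the only one called, at −1.27 after JQ1 (adjusted p = 0.0108), beside −0.78 (adjusted p = 0.0936) after RG6146. In this list 1 gene was higher after JQ1 without JQ1 2 or RG6146 3, 0 were lower after JQ1 in DESeq2, and 2 were lower after RG6146 without RG6146 2. Of the 17 alternatives in all, 3 gave 1 higher gene after JQ1 and 2 gave 0 lower.

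Ptpn1 and Ptpn2 encode the closely related PTP1B and TC-PTP, which dephosphorylate JAK kinases, STAT factors and the insulin receptor. Ptpn1, on chromosome 2 (167932057 to 167979385), rose from 97.6, 109 and 111 CPM in DMSO to 140, 137 and 141 CPM after JQ1 and 129, 126 and 142 CPM after RG6146. No treated library reached down into the DMSO range. The log2 fold change was 0.40 ± 0.082 (SE) after JQ1 and 0.33 ± 0.082 after RG6146 (adjusted p = 0.0013 and 0.00649 in edgeR's test). ERCC scaling ended both calls at changes of 0.38 and 0.35 (adjusted p = 0.366 and 0.432), and with ERCC scaling plus a replicate block both were called, at 0.38 and 0.35 (adjusted p = 0.00918 and 0.0163). Scaling to library size ended the RG6146 call (0.22, adjusted p = 0.0552). Ptpn2, on chromosome 18, gave 20.7 to 29.0 CPM in DMSO, 27.1 to 31.9 CPM after JQ1 and 23.9 to 28.9 CPM after RG6146, and these ranges overlapped. Its log2 fold change was 0.23 after JQ1, with a 95% interval of −0.06 to 0.52, and 0.01 after RG6146, with an interval of −0.29 to 0.30. Of this pair of paralogs only Ptpn1 was called, and the difference between the paralogs was not tested.

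Of 17 listed JAK, STAT and receptor genes around PTP1B and TC-PTP, 16 were tested. After JQ1, 3 fell and 1 rose, and after RG6146, 2 fell and 2 rose, with medians of −0.05 and −0.17. Il7r, the interleukin-7 receptor chain that signals through JAK1 and STAT5, had the lowest value of the list at −4.09 and −3.91 on the log2 scale (adjusted p = 1.2e-09 and 1.8e-09 in edgeR's test). Stat5b, a factor below that receptor, fell by 0.45 and 0.46, and Jak1 rose by 0.30 and 0.29. The higher count of this list after JQ1 was 0 without DMSO 2 or JQ1 1, 2 without JQ1 2 or RG6146 3 and 3 without DMSO 3, and after RG6146 it was 0 without DMSO 2 or RG6146 1 and 1 without DMSO 1, RG6146 2 or RG6146 3. Other settings moved it too: after JQ1 it was 0 with library size or ERCC scaling, 2 with ERCC scaling plus the block, and 3 with the block or without a filter. After RG6146 it was 0 with library size scaling, ERCC scaling or DESeq2, and 1 among genes of at least 10 CPM. Over the 17 alternatives, the lower count of this list ran from 2 to 4 after JQ1 and from 1 to 4 after RG6146.

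**Figure D3:**
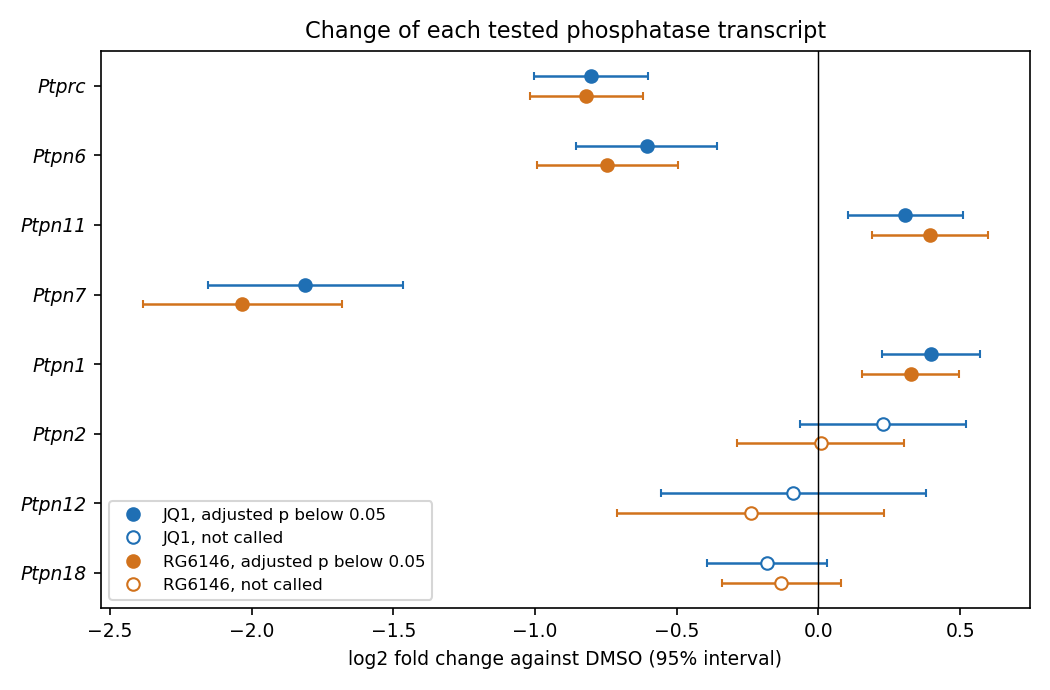
log2 fold change against DMSO (horizontal axis) with its 95% interval for the 8 tested phosphatases; blue is JQ1, orange is RG6146, and filled points have an adjusted p below 0.05. The intervals of Ptprc, Ptpn6 and Ptpn7 lie below 0 and those of Ptpn1 and Ptpn11 above 0 for both compounds, and those of Ptpn2, Ptpn12 and Ptpn18 include 0.

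Ptpn12, Ptpn18 and Ptpn22 form the PEST family, whose proline-rich tails bind adaptor proteins and the kinase CSK. Ptpn18, on chromosome 1, ran from 75.3 to 82.7 CPM in DMSO, from 62.8 to 75.5 CPM after JQ1 and from 65.9 to 79.7 CPM after RG6146. The groups overlapped, and the log2 fold change was −0.18 after JQ1 (interval −0.39 to 0.03) and −0.13 after RG6146 (interval −0.34 to 0.08). With scaling to library size alone, Ptpn18 was called after JQ1, at −0.31 (adjusted p = 0.0212). Gm28417 overlaps 6 exons of Ptpn18 on the opposite strand and had 10 to 32 counts per library, so reads of the pair may not be fully separated.

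Ptpn12, which encodes PTP-PEST, was the lowest of the tested members in DMSO, at 18.6, 13.6 and 14.4 CPM. It gave 11.8, 16.7 and 16.0 CPM after JQ1 and 13.2, 17.7 and 9.09 CPM after RG6146, with wide overlap. Its intervals were the widest of the 8, from −0.56 to 0.38 after JQ1 and from −0.71 to 0.23 after RG6146. Ptpn22 encodes PEP (LYP in humans), a CSK partner that restrains antigen receptor signals. It had 2, 1 and 1 counts in DMSO, 1, 0 and 0 after JQ1 and 0, 0 and 0 after RG6146. A count of 0 over a group allows up to 3 counts, or 0.230 CPM in the RG6146 libraries, so no change was detectable at this depth. Such limits cover counting error only, since the reads carried no molecular identifiers.

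Partners of the PEST family had 11 of 13 genes tested, of which 6 fell and 0 rose after each compound, with medians of −0.36 and −0.28. Beside this, 15.4% of all tested genes were lower after JQ1 and 13.5% after RG6146. The list was chosen with earlier results known, so its count is no test against that share. Vav1, a guanine nucleotide exchange factor of lymphocytes, changed by −0.45 and −0.47, and Ptk2b, the focal adhesion kinase PYK2, by −0.93 and −0.73. Pstpip1, a cytoskeletal protein dephosphorylated by PTP-PEST, changed by −1.31 and −1.48, and Traf3, a signalling adaptor bound by PEP, by −0.41 and −0.39. Csk, listed here and with the CD45 partners, fell by 0.26 and 0.28 (adjusted p = 0.0324 and 0.0263 in edgeR's test), and was named after its values were seen. With ERCC scaling 1 gene of the list was lower after each compound (4 and 5 with the block), and after JQ1 the lower count was 2 in DESeq2 and 3 without DMSO 2 or JQ1 3. For each compound, 1 of the 17 alternatives gave 1 higher gene.

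Most of the remaining classical phosphatases had few reads in this line. Of 29 such genes found, 22 had too few counts to test and 5 of these had 0 counts in all libraries. Among the 7 tested, 1 fell and 0 rose after JQ1, and 1 fell and 1 rose after RG6146. The gene that fell after JQ1 was Ptpn9, a phosphatase of secretory vesicles, at −1.0 (adjusted p = 0.00748), beside −0.62 (adjusted p = 0.0795) after RG6146. After RG6146 the called genes were Ptprj, a receptor phosphatase also known as CD148, at −0.56 (adjusted p = 0.0371), and Ptpn4 at 0.39 (adjusted p = 0.039). After JQ1, 2 genes were lower without DMSO 1, DMSO 2, RG6146 1, RG6146 2 or RG6146 3. After RG6146, 0 were higher without DMSO 1, DMSO 2 or any 1 RG6146 library, 0 were lower without DMSO 3 or RG6146 1, and 2 were lower without JQ1 2, JQ1 3 or RG6146 2. Over all 17 alternatives, 0 to 2 genes were lower and 0 higher after JQ1, and 0 to 3 were lower and 0 to 1 higher after RG6146.

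The order of the levels changed with treatment. In DMSO it ran Ptprc, Ptpn11, Ptpn1, Ptpn18, Ptpn6, Ptpn7, Ptpn2, Ptpn12 and Ptpn22, from high to low. Ptprc, Ptpn11 and Ptpn1 overlapped as neighbours there, as did Ptpn6 and Ptpn7, and the other neighbours did not. After JQ1, Ptpn1 and Ptpn11 were highest and overlapped each other, followed by Ptpn18 and Ptprc, which overlapped too. Ptpn7 had moved to the range of Ptpn12, with group means of 12.8 and 14.8 CPM after JQ1. Ptpn2 and Ptpn6 overlapped as well, at means of 29.92 and 29.89 CPM after JQ1. The order after RG6146 had the same overlapping pairs, with Ptpn11 above Ptpn1 and Ptpn6 above Ptpn2.

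JQ1 and RG6146 were used at different doses, so their values stand side by side here and a difference between them would not separate compound from dose. In the direct test of RG6146 against JQ1, 0.00909% of tested genes were called, which is 1 gene, Gm12693, and none of the 8 members was called or had an unadjusted p below 0.05. The groups of Gm12693 stood at 3.81 to 5.05 CPM after JQ1 and 10.9 to 14.2 CPM after RG6146, and it was named after its values were seen. Libraries of the 2 compounds overlapped for all 8 members, whereas 9.93% of tested genes had no overlap (5.39% higher and 4.54% lower after RG6146). For Ptprc the log2 difference was −0.02, with a 95% interval of −0.22 to 0.19. For Ptpn7 it was −0.22, with an interval of −0.60 to 0.16, and for Ptpn6 −0.14, with an interval of −0.39 to 0.12. For Ptpn1 and Ptpn11 the intervals were −0.24 to 0.10 and −0.12 to 0.29. Genes called after only 1 compound in the lists, such as Mapk11 and Ptpn9, were not called in this direct test.

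**Figure D4:**
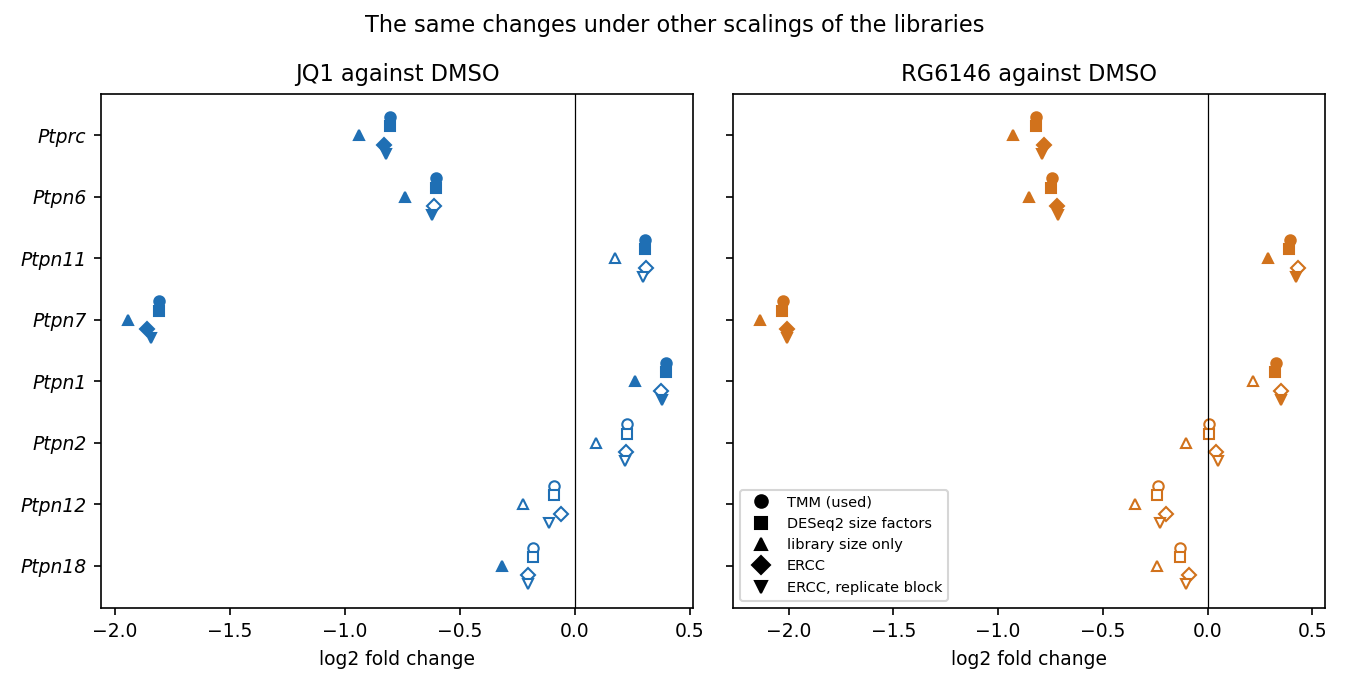
log2 fold change against DMSO (horizontal axis) of the 8 tested phosphatases under 5 scalings of the libraries, for JQ1 (left) and RG6146 (right); marker shapes are scalings, and filled markers have an adjusted p below 0.05. Ptprc and Ptpn7 are filled under all 5 in both panels, and Ptpn1 and Ptpn11 are open under ERCC scaling without the block.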

How the data were processed

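RNA from 9 cultures was made into QuantSeq 3′ libraries and sequenced as single-end reads of 75 bases, per the labels' protocols. The authors deposited raw read counts per Ensembl gene. HISAT2 2.1.0, cutadapt 1.7, featureCounts and the mm10 build are named in the submitters' processing notes. For the annotation release, strand setting and multiply mapped reads, settings were not given in the sources used here. Gene symbols came from GENCODE M21 and matched 42548 of 43629 identifiers. The 92 ERCC spike-in rows were left out of library sizes and tests.

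Genes were filtered with filterByExpr (minimum count 10), scaled by TMM and fitted over all 9 libraries with edgeR 4.0.16 (robust quasi-likelihood, R 4.3.3). P-values were adjusted by Benjamini-Hochberg over 11002 genes. DESeq2 1.42.0, other scalings and filters, a replicate block and leaving out each library were the alternatives. The code was tested on simulated data. Within groups, no library duplicated another: replicate counts compared by chi-square gave 6.6 to 16.4 per degree of freedom. Libraries of different groups were not compared in this way. The members and lists were chosen with earlier results of these data known. Named genes are the members, up to 4 genes per pathway list with the smallest p after JQ1, and the 3 genes most correlated with each of the 2 members that changed most; others are said to be named after their values were seen, and some genes that the rule names are not reported here. Promoter windows are from RefSeq (GRCm38.p6) and were taken for 7 of the 9 members. Member windows on chromosome 18, where Ptpn2 lies, were left out, and none was matched for Ptpn12.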

Additional observations from a re-analysis of the deposited data

How the results depend on the processing

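Ptprc and Ptpn7 fell in all 17 alternatives for both compounds, of which 9 left out a library. The count of members that rose, 2 for each compound, was 1 for each with library size scaling, 0 for each with ERCC scaling and 1 for JQ1 with ERCC scaling and the replicate block, and 1 to 2 (JQ1) without single libraries. All genes higher after JQ1 numbered 1495, against 913 with library size scaling and 445 with ERCC scaling. For RG6146 they numbered 1374, against 879 and 458. Genes lower numbered 1689 and 1489, against 2444 and 2077 with library size scaling, 751 and 624 with ERCC scaling and 1086 and 980 in DESeq2. With ERCC scaling plus the replicate block, 1206 and 1323 genes were higher and 1623 and 1281 lower. Library size scaling moved the median of all genes to −0.13 and −0.10 and the share of higher calls from 46.9% to 27.2% (JQ1) and from 48.0% to 29.7% (RG6146), and ERCC scaling gave 37.2% and 42.3% (42.6% and 50.8% with the block). The single gene higher in RG6146 than JQ1 became 3 with ERCC scaling, 0 with the replicate block, 7 without a filter, 0 at 10 CPM or more, and 0 to 2 without single libraries. None was lower, beside 1 with ERCC scaling, 10 without a filter and 0 to 1 without single libraries. Signs reversed only for values not called: Ptpn12 after JQ1 (−0.18 to 0.071 without single libraries), Ptpn2 after RG6146 (−0.10 with library size, −0.025 at 10 CPM or more, −0.11 to 0.11 without single libraries), and, for RG6146 against JQ1, Ptprc (0.0084 with library size, 0.049 with ERCC, 0.0315 with ERCC and the replicate block, −0.082 to 0.045 without single libraries), Ptpn12 (−0.41 to 0.066) and Ptpn18 (−0.039 to 0.12). The labels do not say what the replicate numbers share, and deviations of same-numbered samples correlated at −0.0627 to 0.103, so the numbers were not taken as pairs. In every group, however, the ERCC share was highest in the library numbered 1 (1.35% to 1.51%) and lowest in that numbered 3 (0.958% to 1.13%), and the myeloid sum was highest in that numbered 2. With the replicate block 3092 and 2789 genes were called, with 3 members lower and 2 higher for each compound.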

Other observations

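A130071D04Rik, an uncharacterised locus on the same strand inside Ptprc that touches 0 of its exons, gave 7.15, 7.68 and 10.5 CPM in DMSO, 1.89, 4.52 and 2.61 CPM after JQ1 and 2.74, 3.29 and 4.09 CPM after RG6146. All treated libraries lay below the DMSO libraries, and the locus was named after its values were seen. Its log2 fold change was −1.49 ± 0.32 (SE) after JQ1 (adjusted p = 0.00185 in edgeR's test), beside −0.80 for Ptprc.

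Among 7410 genes of at least 10 CPM, the level of Ptpn7 over the 9 libraries was most like that of Pomt1, a protein mannosyltransferase (Pearson r = 0.992 on log2 CPM), 3425401B19Rik (0.990) and Selplg, the selectin ligand PSGL-1 (0.989). Ptprc was most like Ripor2, Timm10b and 4930523C07Rik. These points share libraries and the split into treated and untreated cultures, and 419 genes passed r = 0.9 with Ptpn7 and 418 with Ptprc.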
